A study of Arabidopsis thaliana with 4 samples.

Results

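The mRNA of a pair of transgenic Arabidopsis lines was compared, HTR13-GFP against HTR5-GFP, with the tissue as a block. Both are homozygous lines in the Columbia background, transformed in the vector pMDC107 with a fusion of green fluorescent protein (GFP) to a histone H3 gene under the gene's own promoter: pHTR5:HTR5::GFP tags the H3.3 gene HTR5 (AT4G40040) and pHTR13:HTR13::GFP tags the H3.1 gene HTR13 (AT5G10390). Each line gave 2 libraries, 1 of dividing tissue (the meristem and younger leaves) and 1 of non-dividing tissue (the oldest 4 to 6 leaves), all from plants kept in 8 h of light and 16 h of darkness for 4 weeks. Of 33476 annotations, 17965 had a mean of at least 1 FPKM (fragments per kilobase, scaled to the mapped reads) over the 4 libraries and entered the comparison, the tagged genes being left out. No untransformed plants were among the libraries, so a difference cannot be assigned to either line by a control. The sources used here do not say how many independent insertions a line stands for, and with 1 library per line and tissue, line and anything else that differed between the plantings or harvests cannot be told apart.

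Histone H3.1 is put into chromatin mainly during DNA replication, whereas H3.3 can replace it outside replication and is known from animals and plants for its enrichment over transcribed genes. Both proteins are encoded by small gene families, so that a tagged copy adds to a pool made by several genes. The plants of both lines therefore keep their own H3.1 and H3.3 genes and carry the tagged gene in addition.

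FPKM summed to between 700884 and 715002 per library, and each library held 13084 to 14269 annotations listed at 0. The dissected tissues matched their labels in both lines. The summed FPKM of 23 cell division genes was 43.1 and 44.7 in the non-dividing libraries of HTR5-GFP and HTR13-GFP, and 257 and 253 in the dividing ones. The summed level of 12 markers of the shoot meristem and organ boundaries was 29.4 and 29.2 in non-dividing tissue and 97.2 and 98.9 in dividing tissue. No member of either list was called between the lines by limma or had an unadjusted p under 0.05, and the median log2 fold change was -0.05 for the division genes and -0.01 for the 6 meristem markers tested. Of 8 root markers only PYK10, a beta-glucosidase, was expressed at a mean of at least 1 FPKM, and the remaining ones reached no more than 1.03 FPKM in any library. Senescence markers summed to 379 and 340 FPKM in non-dividing tissue of HTR5-GFP and HTR13-GFP and to 114 and 111 in dividing tissue, and none of the 8 tested was called (2 at an unadjusted p under 0.05).

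The tagged genes were higher in the line that carries them. HTR13 was at 179 FPKM in non-dividing and 116 FPKM in dividing tissue of HTR13-GFP, against 4.38 and 16.4 FPKM in HTR5-GFP. HTR5 was at 772 FPKM in non-dividing and 1315 FPKM in dividing tissue of HTR5-GFP, against 351 and 644 FPKM in HTR13-GFP. In other words HTR13 stood 40.8-fold higher in non-dividing and 7.04-fold higher in dividing tissue, whereas HTR5, the more abundant gene, stood 2.20-fold and 2.04-fold higher. These values check the labels and are given without a test. In RefSeq's TAIR10.1 annotation the coding sequence of HTR13 (411 bases) differed from those of the other H3.1 genes HTR1, HTR2, HTR3 and HTR9 at 54 to 66 positions, and that of HTR5 differed from the H3.3 gene HTR8 at 83, and the share of reads that fit more than 1 copy was not computed, so the division of reads between copies is uncertain. None of the 8 other H3 genes tested was called by limma, with 1 at an unadjusted p under 0.05. HTR9, which lies beside HTR13, was at 12.7 FPKM in both non-dividing libraries, and at 57.3 FPKM in dividing tissue of HTR5-GFP and 75.7 FPKM in that of HTR13-GFP (adjusted p = 0.612 by limma). HTR4, an H3.3 gene beside HTR5, was at 257 and 316 FPKM in the non-dividing libraries of HTR5-GFP and HTR13-GFP and at 425 and 505 FPKM in the dividing ones (adjusted p = 0.434).

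On the other side of HTR5, the adjoining pair of annotations was higher in HTR5-GFP, the line with the HTR5 transgene. AT4G40042 encodes a 12 kDa subunit of the microsomal signal peptidase, the enzyme that removes signal peptides from secreted proteins, and AT4G40045 an uncharacterized protein. AT4G40042 (TAIR9 chr4:18559103-18559844) was at 23.9 and 80.2 FPKM in non-dividing and dividing tissue of HTR5-GFP and at 7.03 and 18.0 FPKM in those of HTR13-GFP, a log2 fold change of -1.86 ± 0.13 (SE; HTR13-GFP minus HTR5-GFP; limma, Benjamini-Hochberg adjusted p = 0.0263). AT4G40045 (TAIR9 chr4:18559784-18560657) was at 68.7 and 64.2 FPKM in HTR5-GFP and at 24.2 and 23.1 FPKM in HTR13-GFP, a log2 fold change of -1.45 ± 0.09 with the same adjusted p. Each HTR5-GFP library was above each HTR13-GFP library for both genes. The share of all annotations without such overlap between the lines was not computed. Here and below, a lack of overlap between 2 libraries per line is a description and no separate support. The annotations overlap each other, so reads of the shared end cannot be assigned to 1 of them with certainty. Beyond this pair, the next annotation, AT4G40050, was at 20.1 and 21.5 FPKM in the non-dividing libraries of HTR5-GFP and HTR13-GFP and at 30.8 and 28.8 FPKM in the dividing ones. Of the 20 nearest annotations of HTR5, 10 on each side, 11 were tested and these 2 were called. The other 9 had log2 ratios between -0.11 and 0.34. Of the 20 nearest annotations of HTR13, 16 were tested and none was called, with log2 ratios between -0.55 and 0.40 and a smallest adjusted p of 0.272 (limma). How far the promoter fragment of either construct reaches is not given in the sources used here, and its part in these values was not tested.

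HTR5 and AT4G40042 are transcribed away from each other. The stretch between their starts is shown because it lies between the tagged gene and the called neighbour, and its part in either gene's level was not tested. In the TAIR9 annotation used for the FPKM, 359 bases lie between them. In TAIR10.1 it spans 151 bases (chr4:18558946-18559096, printed on the minus strand, that of HTR5, from RefSeq's assembly).
HTR5 to AT4G40042: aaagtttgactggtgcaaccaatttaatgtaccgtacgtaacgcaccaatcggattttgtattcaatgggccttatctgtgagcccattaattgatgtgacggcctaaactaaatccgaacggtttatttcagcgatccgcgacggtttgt

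**Figure D1:**
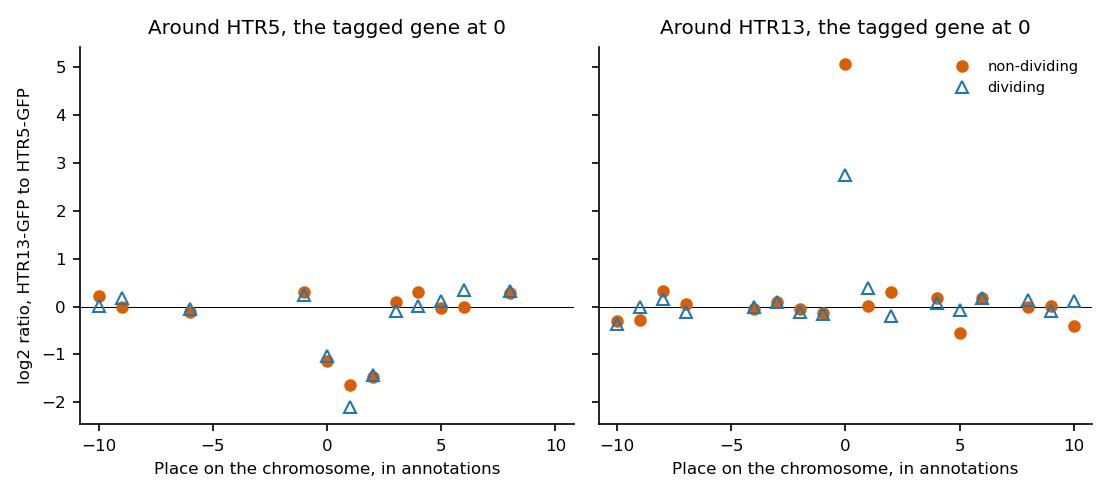
Log2 ratio of HTR13-GFP to HTR5-GFP, on the log2(FPKM + 1) scale, for the tested annotations around the tagged genes HTR5 (left) and HTR13 (right), by their order on the chromosome with the tagged gene at 0. Filled circles are non-dividing and open triangles dividing tissue, 1 library per line each. At HTR5 the annotations at 1 and 2 lie below -1 with the tagged gene, whereas at HTR13 the tagged gene alone stands apart.

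Few annotations were called between the lines. The median log2 fold change over the 17965 annotations was 0.02. FPKM is scaled to the mapped reads of each library, so this median is no measure of how far the lines differ. By limma with the tissue as a block, 13 annotations (0.0724% of those tested) were called higher in HTR13-GFP and 25 (0.139%) higher in HTR5-GFP, at adjusted p between 0.0263 and 0.0499, while 2006 had an unadjusted p under 0.05. The 38 calls had the same sign in both tissues. The fit favours this, since its residual is the disagreement between the line ratios of the tissues, so it is no separate support. The calls and the 2-fold counts that follow include annotations listed at 0 in both libraries of a line, described below. Those passed the filter on mean FPKM only through the other line. A difference of at least 2-fold in FPKM + 1 in both tissues was found for 8 annotations higher in HTR13-GFP (0.0445%) and 28 higher in HTR5-GFP (0.156%). Non-dividing tissue alone gave 55 and 197, and dividing tissue alone 51 and 65. Adding 1 lowers the ratio, so some genes above 2-fold in FPKM, such as WRKY33 in dividing tissue, are not counted. The middle 95% of log2 ratios ran from -0.62 to 0.55 in non-dividing and from -0.46 to 0.47 in dividing tissue. Across annotations, which are not independent replicates, Pearson's r between the ratios of both tissues was 0.250, and Spearman's rho was 0.240. They come from separate libraries, but lines and library construction are shared, and no test is attached to them. The limits of the comparison are the 1 residual degree of freedom behind each annotation, to which limma lent a prior of 5.22, and the closeness of every call to the threshold: no annotation was called without the tissue block, on quantile-normalized values or without the filter on low FPKM.

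**Figure D2:**
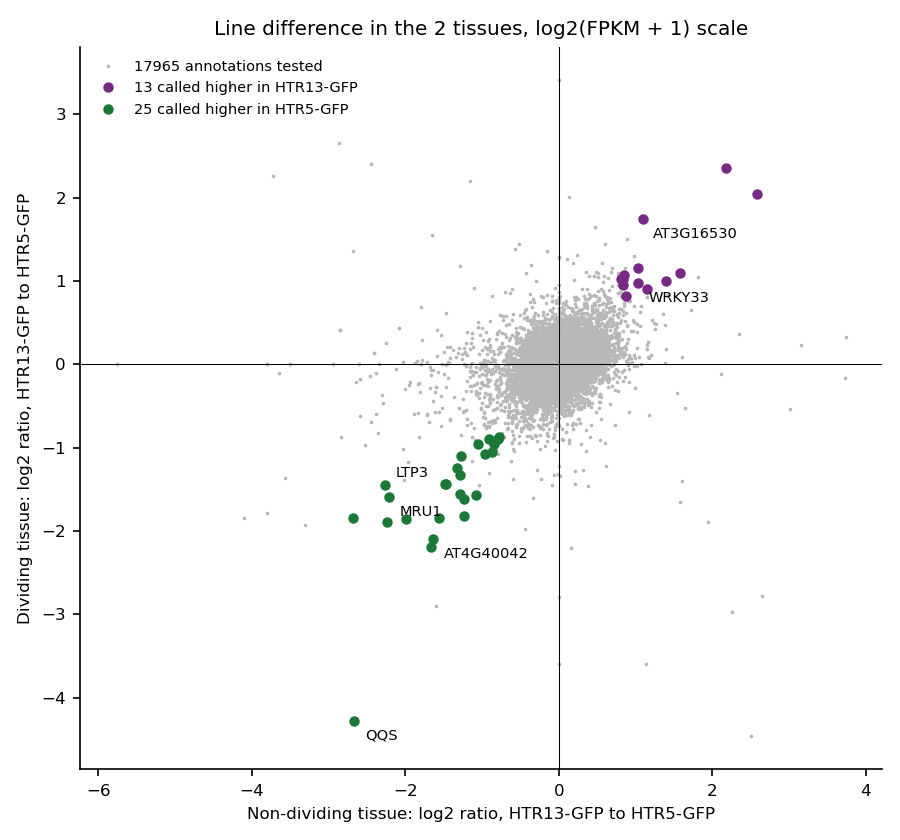
Log2 ratio of HTR13-GFP to HTR5-GFP in non-dividing (x axis) and dividing tissue (y axis), log2(FPKM + 1) scale, for the 17965 tested annotations (grey). The 13 called higher in HTR13-GFP (purple) lie in the upper right and the 25 called higher in HTR5-GFP (green) in the lower left, with QQS farthest out at -2.66 and -4.28. The fit favours calls whose ratios agree between the tissues.

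The 13 genes called higher in HTR13-GFP included WRKY33, CYP81F2 and IGMT2, while 4 of the 13 encode proteins with no annotated function. WRKY33 encodes a transcription factor of resistance to necrotrophic fungi and of camalexin synthesis, CYP81F2 a cytochrome P450 that hydroxylates indole glucosinolates, and IGMT2 the methyltransferase of the following step. WRKY33 (TAIR9 chr2:16108361-16110766) was at 51.4 and 19.1 FPKM in non-dividing and dividing tissue of HTR5-GFP and at 107 and 38.5 FPKM in those of HTR13-GFP. It was thus 2.08-fold and 2.02-fold higher in HTR13-GFP (log2 fold change 1.01 ± 0.10 (SE); limma adjusted p = 0.0387), while non-dividing tissue of HTR5-GFP was still above dividing tissue of HTR13-GFP. WRKY33 overlaps another annotation. CYP81F2 went from 19.6 and 2.45 FPKM in non-dividing and dividing tissue of HTR5-GFP to 35.2 and 6.00 FPKM in HTR13-GFP (limma adjusted p = 0.0498). IGMT2 went from 14.1 and 4.54 FPKM to 26.1 and 10.7 FPKM (adjusted p = 0.0488 by limma). Of these genes, IGMT2 has close tandem homologues among which reads may be divided.

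The remaining members of the group included lectins and a defensin. AT3G16530 encodes a legume-type lectin and had the largest log2 fold change among those listed above 0 in every library, 1.42 ± 0.16 (SE). It was at 57.4 and 9.34 FPKM in non-dividing and dividing tissue of HTR5-GFP and at 124 and 33.5 FPKM in HTR13-GFP (limma adjusted p = 0.0498). A second lectin gene, AT3G15356, was at 126 and 45.4 FPKM in HTR5-GFP and at 227 and 93.6 FPKM in HTR13-GFP. PDF1.2A (AT5G44420), a plant defensin widely used as a marker of the jasmonate and ethylene response, was low in all libraries. It was listed at 1.85 and 4.70 FPKM in HTR5-GFP and at 6.54 and 10.4 FPKM in HTR13-GFP, so that both HTR13-GFP libraries were above both HTR5-GFP libraries, though reads may be divided among its near-identical paralogues. AT1G26380, which encodes a berberine bridge enzyme-like protein with an FAD-binding domain, likewise showed no overlap, with 3.14 and 3.98 FPKM against 7.45 and 10.1 FPKM. AT5G47590, of the HSP20 family of small heat shock proteins, was at 7.29 and 2.86 FPKM in HTR5-GFP and at 23.8 and 7.27 FPKM in HTR13-GFP. CAF1a (AT3G44260), a deadenylase that shortens poly-A tails, was at 12.2 and 3.12 FPKM and at 23.1 and 6.26 FPKM. AT1G27020 and the uncharacterized AT1G05575 completed the genes listed above 0 throughout. For 10 of the 13 genes (76.9%) the mean level was higher in non-dividing tissue, against 30.8% of all annotations tested. Fewer cells of a type and less RNA per cell cannot be told apart in such tissue samples.

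The promoters of this group were searched for 6 short motifs on both strands, from 250 bases before to 50 after the start in TAIR10.1. TTGAC, the core of the W-box that WRKY factors bind, was found in 11 of 13, against 13 of 25 promoters of genes called higher in HTR5-GFP and 50.6% of 17793 tested annotations with a promoter. CACGTG (G-box) was found in 0, 4 and 9.08%, CCGAC (the core of the cold-responsive element) in 1, 3 and 16.7%, AAAATATCT (evening element) in 0, 1 and 3.12%, GTAC (copper response core) in 7, 8 and 39.4%, and the heat shock element in 0, 0 and 0.517%. No other motif searched contains TTGAC, and a match is no evidence of binding. The 250 bases before the start are shown for 4 genes of the group that are annotated or known for a part in defence, with the motif in capitals as TTGAC or, where it lies on the other strand, as GTCAA. They were taken from RefSeq's TAIR10.1 and run 5′ to 3′ towards the gene, for WRKY33 from chr2:16107985-16108234 (plus strand), for AT1G26380 from chr1:9128569-9128818 (minus), for CYP81F2 from chr5:23187590-23187839 (plus) and for IGMT2 from chr1:7396824-7397073 (minus).
WRKY33: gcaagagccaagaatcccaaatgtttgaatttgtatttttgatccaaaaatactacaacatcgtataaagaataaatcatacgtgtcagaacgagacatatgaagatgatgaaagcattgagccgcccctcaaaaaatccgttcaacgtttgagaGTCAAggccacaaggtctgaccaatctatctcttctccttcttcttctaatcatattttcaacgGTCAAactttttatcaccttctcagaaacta
AT1G26380: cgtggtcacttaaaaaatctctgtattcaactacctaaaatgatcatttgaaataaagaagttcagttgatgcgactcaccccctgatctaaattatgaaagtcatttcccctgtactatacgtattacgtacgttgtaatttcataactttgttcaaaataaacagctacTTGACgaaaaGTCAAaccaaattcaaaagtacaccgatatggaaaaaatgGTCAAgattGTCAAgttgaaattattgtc
CYP81F2: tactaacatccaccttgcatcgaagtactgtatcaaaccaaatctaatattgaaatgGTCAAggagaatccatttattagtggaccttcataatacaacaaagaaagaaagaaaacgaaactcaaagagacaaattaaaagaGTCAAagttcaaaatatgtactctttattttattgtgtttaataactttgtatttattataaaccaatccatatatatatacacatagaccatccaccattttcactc
IGMT2: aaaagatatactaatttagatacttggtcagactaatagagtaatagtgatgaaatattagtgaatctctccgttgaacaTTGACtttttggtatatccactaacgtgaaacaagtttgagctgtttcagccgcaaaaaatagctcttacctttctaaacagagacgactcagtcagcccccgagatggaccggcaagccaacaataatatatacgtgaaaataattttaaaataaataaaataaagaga
WRKY33 and CYP81F2 held 2 motifs each in these bases, AT1G26380 held 4 and IGMT2 held 1.

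The gene with the largest difference was higher in HTR5-GFP. QQS (qua-quine starch, AT3G30720; TAIR9 chr3:12349047-12349832) is found only in Arabidopsis thaliana, affects the partition of carbon and nitrogen into starch and protein, and is known for an expression that varies between plants of 1 accession with the DNA methylation of its promoter. It was at 59.3 and 115 FPKM in non-dividing and dividing tissue of HTR5-GFP and at 8.52 and 4.96 FPKM in those of HTR13-GFP. The difference was 6.96-fold in non-dividing and 23.2-fold in dividing tissue (log2 fold change -3.47 ± 0.34 (SE); limma adjusted p = 0.0387), and the libraries of both lines did not overlap. No measurement of DNA methylation was used here.

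Among the abundant genes called higher in HTR5-GFP were LTP3, MRU1 and PILS5. LTP3 (AT5G59320), a lipid transfer protein of the epidermis, was at 349 and 5.89 FPKM in non-dividing and dividing tissue of HTR5-GFP and at 71.6 and 1.53 FPKM in HTR13-GFP, that is 4.87-fold and 3.85-fold higher in HTR5-GFP (log2 fold change -1.86 ± 0.19; limma adjusted p = 0.0397). MRU1 (AT5G35490), named for its induction in a mutant that overaccumulates methionine, was at 43.4 and 7.01 FPKM in HTR5-GFP and at 8.58 and 1.65 FPKM in HTR13-GFP. In both genes the log2 fold change between tissues exceeded that between lines. PILS5 (AT2G17500), an auxin carrier of the endoplasmic reticulum, was at 46.4 and 12.6 FPKM in HTR5-GFP and at 19.1 and 3.44 FPKM in HTR13-GFP, and overlaps another annotation. AT5G39520, of unknown function, was at 135 and 14.5 FPKM against 55.0 and 4.28 FPKM. TPX2 (AT1G65970), a thioredoxin-dependent peroxidase and not the spindle protein of that name, was at 169 and 105 FPKM in HTR5-GFP and at 81.1 and 53.7 FPKM in HTR13-GFP, without overlap between the lines. AT2G43535, of the scorpion toxin-like knottin family, was at 59.6 and 99.2 FPKM against 30.1 and 46.4 FPKM and did not overlap either. GLYI7 (AT1G80160), a glyoxalase I homologue that takes part in the removal of methylglyoxal, had the smallest log2 fold change of the group, -0.83 ± 0.09 (SE). The mean level was higher in non-dividing tissue for 13 of the 25 annotations (52%), against 30.8% of all annotations tested.

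Among the less abundant members, AT3G54730, annotated as a transcription repressor, was at 5.31 and 4.80 FPKM in HTR5-GFP and at 0.593 and 0.609 FPKM in HTR13-GFP. Its mean in HTR13-GFP was 0.601 FPKM, and that of AT5G05530, named below, was 0.542 FPKM. Both passed the filter on mean FPKM only through HTR5-GFP, so their calls are no separate support for a difference. AT5G44574 and AT5G44578, a pair of uncharacterized genes on chromosome 5 within 5 annotations of each other, were the only other pair of neighbours among the 38 calls beside AT4G40042 and AT4G40045. AT5G44574 was at 3.51 and 4.80 FPKM in HTR5-GFP and at 0.801 and 1.45 FPKM in HTR13-GFP. AT5G44578 was at 5.57 and 16.1 FPKM against 2.65 and 7.81 FPKM. A transposable element gene, SADHU7-1 (AT3G13438), a pseudogene, AT4G04408, and a non-coding RNA, AT3G41761, also belonged to the group. SADHU7-1, of a family of non-autonomous retrotransposons, was at 9.72 and 6.62 FPKM in HTR5-GFP and at 4.06 and 1.56 FPKM in HTR13-GFP. It was the only transposable element gene called of 105 tested, whose median log2 fold change was 0.00. Of the 25 annotations, 8 (32.0%) overlap another annotation, against 16.1% of all tested. Besides 4 annotations listed at 0 in HTR13-GFP, the members not described so far, AT3G26460, AT5G05530, AT1G05400, AT5G40960 and AT3G56210, had log2 fold changes between -1.53 and -0.84.

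**Figure D3:**
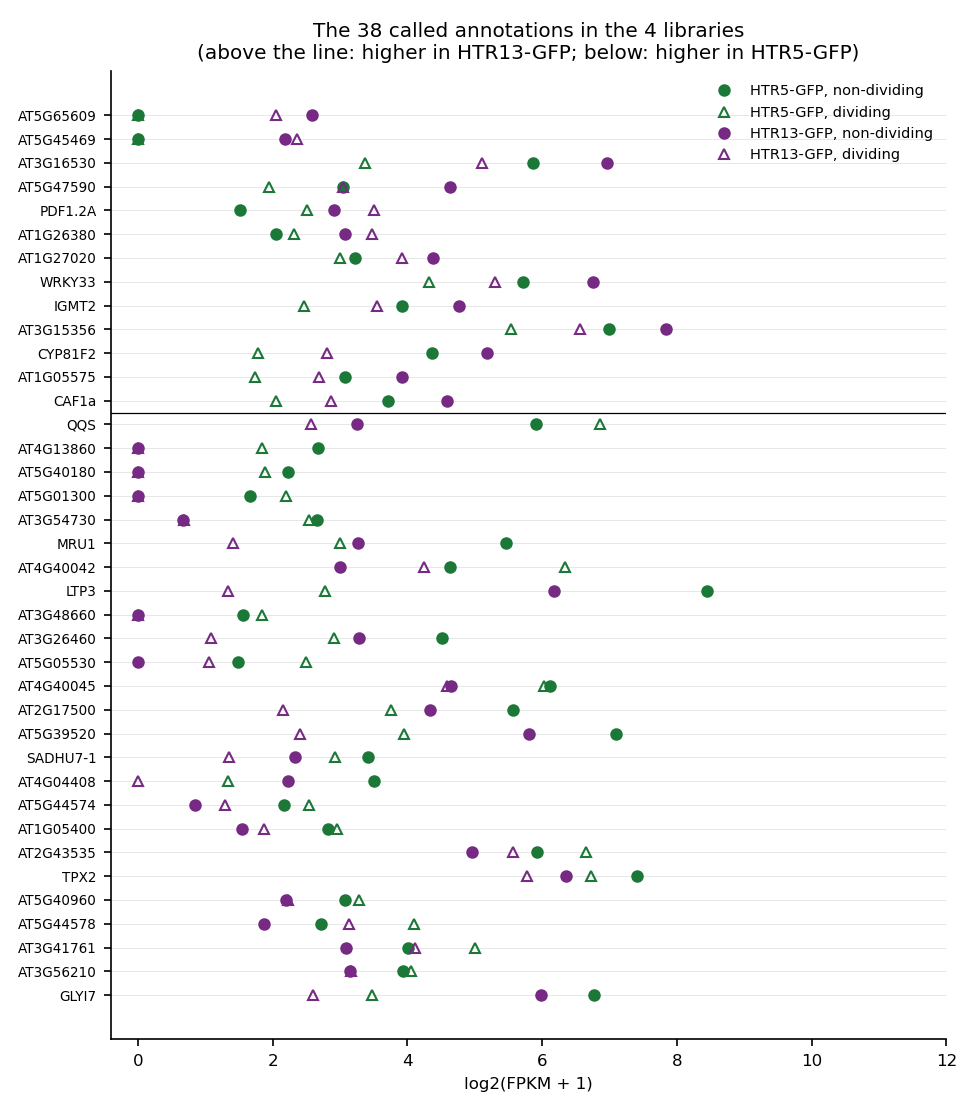
Level of the 38 called annotations in each of the 4 libraries, as log2(FPKM + 1), with HTR5-GFP in green, HTR13-GFP in purple, non-dividing tissue as filled circles and dividing tissue as open triangles. Within each tissue the purple and green symbols are separated in the same order, by 3.47 (QQS) to 0.83 (GLYI7) on average below the line. The fit favours calls with the same order in both tissues.

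Several short or weakly expressed annotations were listed at 0 in both libraries of a line and above 0 in both of the other. There were 2 such annotations for HTR5-GFP, AT5G65609 and AT5G45469, both called higher in HTR13-GFP, and 6 for HTR13-GFP, of which 4 were called. All of them passed the filter on mean FPKM only through the line in which they were above 0. Their calls are therefore no separate support for a difference. AT5G45469 was at 3.53 and 4.14 FPKM in non-dividing and dividing tissue of HTR13-GFP, and AT5G65609 at 5.01 and 3.13 FPKM. The 4 called higher in HTR5-GFP were AT4G13860, of a family of RNA-binding proteins (5.38 and 2.58 FPKM), AT5G40180 (3.70 and 2.70 FPKM), AT5G01300, of the phosphatidylethanolamine-binding family (2.16 and 3.59 FPKM), and AT3G48660 (1.95 and 2.59 FPKM). No fold is given for these genes, since a 0 in such a table can be a failed estimate: 2.92% of all annotations tested were listed at 0 in at least 1 library, but 2 of the 13 and 6 of the 25 calls were. The chloroplast annotation ATCG00640 and AT1G76960, listed at 0 in HTR13-GFP, were not called (adjusted p = 0.0518 and 0.0521 by limma).

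The touch and wound genes stood highest among 23 lists of genes by their median. The lists were chosen with earlier results of these data known, and this one holds called genes, so its rank is no separate support. Of 15 tested, WRKY33 and CAF1a were called higher in HTR13-GFP and none lower, and 12 had a log2 ratio above 0 in both tissues, against 34% of all annotations tested. The median log2 fold change of the list was 0.71, with 0.63 in non-dividing and 0.70 in dividing tissue, beside 0.02 over all annotations. ERF6, an ethylene response factor, was at 10.9 and 4.14 FPKM in non-dividing and dividing tissue of HTR5-GFP and at 19.2 and 8.92 FPKM in HTR13-GFP (limma adjusted p = 0.0521). WRKY40, a repressor of defence genes, was at 16.2 and 6.45 FPKM against 30.2 and 11.1 FPKM (limma adjusted p = 0.059), and the zinc finger repressor ZAT10 at 36.6 and 5.32 FPKM against 55.2 and 11.6 FPKM. TCH3, a calmodulin-like protein and the most abundant of the list, was at 292 and 115 FPKM against 444 and 204 FPKM (limma adjusted p = 0.0951). Not every touch gene was higher. TCH4, a xyloglucan endotransglucosylase, was at 51.3 and 34.0 FPKM in HTR5-GFP and at 48.8 and 31.2 FPKM in HTR13-GFP, and ZAT12 had a log2 fold change of -0.07. The 12 members with an unadjusted p under 0.05 stand beside 2006 of 17965 annotations.

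Of 21 jasmonate genes tested, PDF1.2A alone was called, and the median log2 fold change was 0.18. In both tissues 12 were above 0 and 5 below 0, against 34% and 23.2% of all annotations. TAT3, a tyrosine aminotransferase induced by jasmonate, was at 1.77 and 3.24 FPKM in HTR5-GFP and at 4.02 and 8.46 FPKM in HTR13-GFP (limma adjusted p = 0.0553). The repressors of the pathway JAZ1 and JAZ5 had log2 fold changes of 0.54 each, and MYC2, its main transcription factor, 0.39. VSP2, a vegetative storage protein, had a negative log2 fold change, with 47.5 and 151 FPKM in HTR5-GFP and 27.1 and 71.1 FPKM in HTR13-GFP (log2 fold change -0.93 ± 0.11 (SE); limma adjusted p = 0.0521). VSP1, a near copy with which it may share reads, was at 15.9 and 75.7 FPKM against 11.7 and 44.8 FPKM. In the salicylate list, with a median of 0.11 over 16 tested, no call and 6 at an unadjusted p under 0.05, the pathogenesis-related genes PR5 and PR2 had the lowest values. PR5, a thaumatin-like protein, had a log2 fold change of -1.03 (limma adjusted p = 0.112). PR2, a glucanase, was at 5.01 and 15.0 FPKM in HTR5-GFP and at 2.44 and 11.2 FPKM in HTR13-GFP. WRKY53 had the highest log2 fold change of the list, 0.52.

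None of the 27 clock genes was called, and LHY had the highest log2 fold change of the list. LHY and CCA1 encode Myb factors of the morning loop. LHY was at 38.1 and 41.5 FPKM in non-dividing and dividing tissue of HTR5-GFP and at 67.9 and 66.4 FPKM in HTR13-GFP (log2 fold change 0.74; limma adjusted p = 0.0659). CCA1 was at 49.4 and 39.5 FPKM against 73.7 and 60.1 FPKM (0.58; limma adjusted p = 0.0989). For both genes the HTR13-GFP libraries lay above the HTR5-GFP libraries with no overlap, which is no separate support, since the share of all annotations without overlap was not computed. COL2 (0.69), RVE1 (0.67), BOA (0.65) and RVE8 (0.60) had log2 fold changes of like size, at adjusted p between 0.0699 and 0.125. PRR5, a repressor of CCA1 and LHY, was at 31.5 and 41.2 FPKM in HTR5-GFP and at 26.1 and 32.0 FPKM in HTR13-GFP (-0.31, limma adjusted p = 0.314). TOC1 and GI had log2 fold changes of 0.08 and -0.12. Among the members with smaller values were ELF4 (0.44), RVE4 (0.28), LUX (0.27), CDF1 (0.14), RVE6 (0.07), PRR9 (0.06) and LNK1 (-0.04). The median of the list was 0.08. In both tissues 16 of 27 were above 0 and 6 below 0, against 34% and 23.2% of all annotations. An unadjusted p under 0.05 by limma was found for 11 of 27, beside 2006 of 17965 annotations. The sources used here do not give the hour of harvest.

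**Figure D4:**
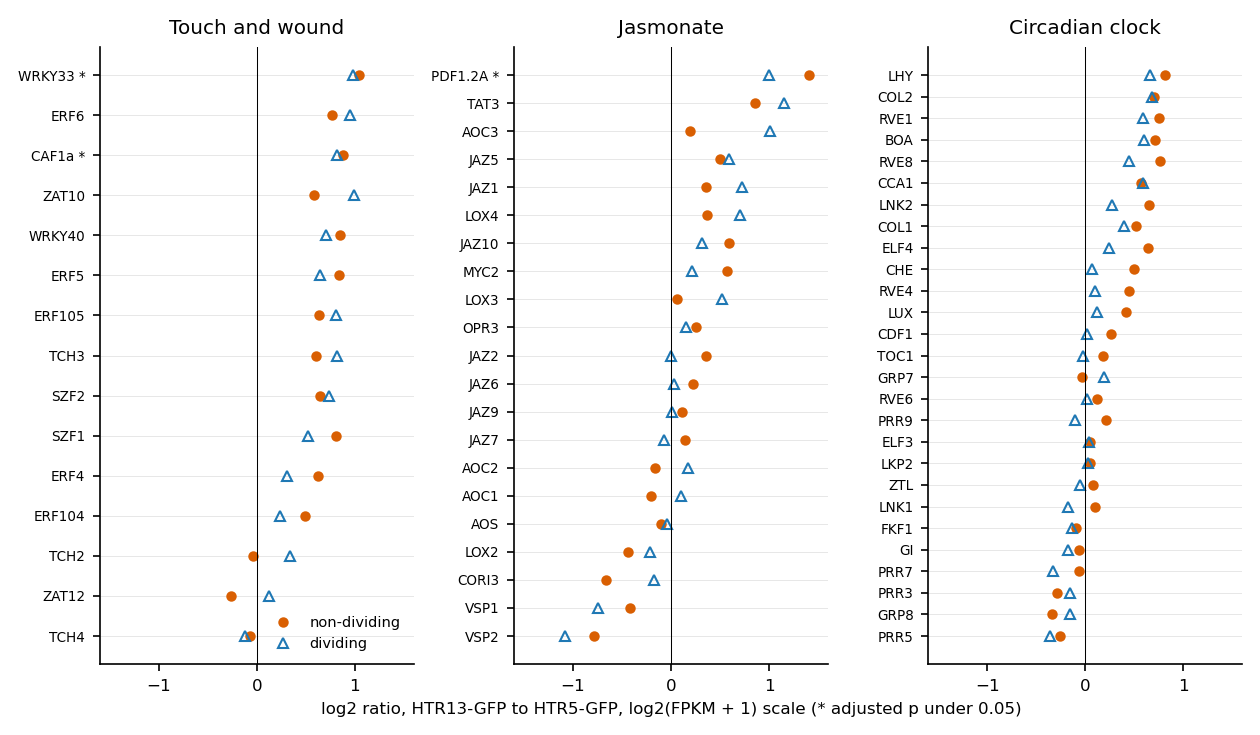
Log2 ratio of HTR13-GFP to HTR5-GFP for each tested member of the touch and wound (15), jasmonate (21) and clock lists (27), in non-dividing (filled circles) and dividing tissue (open triangles), 1 library per line each, with an asterisk for the 3 genes at an adjusted p under 0.05. Touch genes lie to the right of 0 but for TCH2, ZAT12 and TCH4 in at least 1 tissue, jasmonate genes on both sides, and LHY, COL2, RVE1, BOA, RVE8 and CCA1 at the top of the clock list.

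Flavonoid genes had the lowest median, -0.33 over 9 tested, with -0.27 in non-dividing and -0.48 in dividing tissue. This list too was chosen with earlier results of these data known. None was called by limma, with 5 at an unadjusted p under 0.05. None was above 0 in both tissues, whereas 6 were below 0 in both, against 34% and 23.2% of all annotations. CHS, the first enzyme of the pathway, had a log2 fold change of -0.53 (limma adjusted p = 0.136). The glutathione transferase TT19 was at 0.672 and 3.65 FPKM against 0 and 1.62 FPKM. With a mean of 0.809 FPKM in HTR13-GFP, TT19 passed the filter on mean FPKM only through HTR5-GFP. In the cold list the tissues differed, with a median of 0.16 in non-dividing and -0.44 in dividing tissue over 13 genes, no call by limma and 3 genes at an unadjusted p under 0.05. KIN1, a cold-induced hydrophilic protein, was at 161 and 20.9 FPKM in HTR5-GFP and at 119 and 4.56 FPKM in HTR13-GFP (limma adjusted p = 0.244). COR15A, which protects chloroplast membranes in the cold, was at 816 and 46.5 FPKM against 690 and 22.4 FPKM. KIN1 with KIN2 and COR15A with COR15B are near copies whose reads may be divided. In non-dividing tissue KIN2 and COR15B went the other way, with log2 ratios of 0.25 and 0.22. In dividing tissue they were at -0.65 and -1.44. The factors upstream, CBF1, CBF2 and CBF3, had log2 fold changes of 0.21, 0.32 and -0.32.

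**Figure D5:**
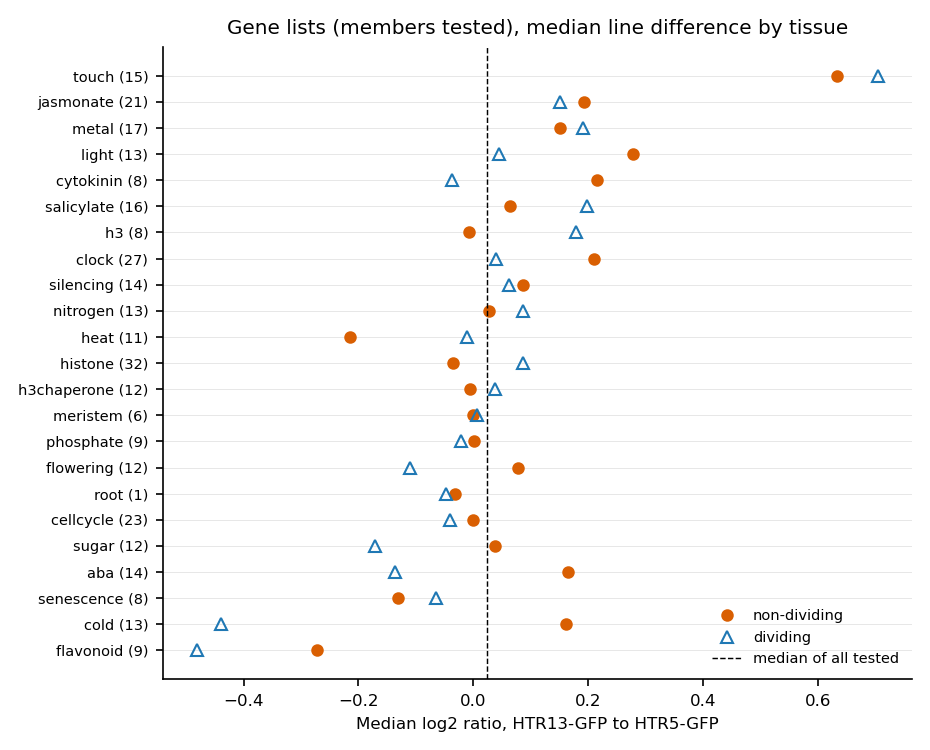
Median log2 ratio of HTR13-GFP to HTR5-GFP over the tested members (number in brackets) of the 23 lists, in non-dividing (filled circles) and dividing tissue (open triangles). The dashed line is the median of all annotations, 0.02. The touch list lies at 0.63 and 0.70, apart from the other lists, and the cold list has medians of opposite sign, 0.16 and -0.44. The lists were chosen with earlier results of these data known.

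For the genes closest to the tagged proteins, no call was made. Among 12 chaperones of H3, all tested, the median log2 fold change was 0.00 and the smallest adjusted p by limma was 0.684, with 0 members at an unadjusted p under 0.05. The 32 genes for the other histones had a median of 0.01, with the linker histone H1.3, known in Arabidopsis for its induction by drought and low light, at the largest log2 fold change, 0.88 (limma adjusted p = 0.128). The 14 genes for DNA methylation and histone methylation had a median of 0.08 and a smallest adjusted p of 0.354 (limma). In both tissues 7 of them lay above 0 and 0 below 0, against 34% and 23.2% of all annotations. These p-values do not show that the genes were equal in both lines. The remaining lists held no call either. Their medians were 0.15 for iron and copper, 0.14 for light, 0.12 for cytokinin response regulators, 0.06 for nitrate, 0.03 for heat, -0.01 for phosphate, -0.02 for flowering, -0.07 for sugar and -0.08 for abscisic acid. The largest log2 fold changes in these lists were -0.98 for the phosphate starvation RNA AT4 (limma adjusted p = 0.126), -0.96 for ELIP2, an early light-induced protein (0.128), 0.93 for BHLH100, a factor of the iron deficiency response (0.204), and -0.87 for DIN2, a dark-induced glucosidase (0.233). With a mean of 0.503 FPKM in HTR13-GFP, ELIP2 passed the filter on mean FPKM only through HTR5-GFP. RD22, a dehydration-induced gene, was at 1375 and 93.0 FPKM in HTR5-GFP and at 670 and 70.2 FPKM in HTR13-GFP (limma adjusted p = 0.188).

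By class, the 38 calls were 35 protein-coding genes of the nucleus and 1 annotation each of transposable element genes, pseudogenes and other RNA. No chloroplast or mitochondrial annotation was called among 74 and 23 tested. Chloroplast annotations had a median log2 ratio of -0.42 in non-dividing and 0.07 in dividing tissue, and the 4 ribosomal RNA annotations -2.23 and -0.06, beside 0.02 in each tissue over all annotations. Both classes are RNAs that largely lack the poly-A tails by which the libraries were selected, and in non-dividing tissue both were lower in HTR13-GFP by these medians. The ribosomal and chloroplast remainder was not tested for its part in other values. The calls were more numerous with nuclear protein-coding genes alone (50 and 47). That setting left the FPKM of the genes kept unchanged, so it cannot show the part of the remainder.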

How the data were processed

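Poly-A RNA of 4 libraries was sequenced on an Illumina Genome Analyser IIx. The authors mapped reads onto TAIR9 with TopHat 1.2.0, Bowtie 0.12.7 and SAMtools 0.1.13 and deposited the FPKM that Cufflinks 0.9.3 gave for each annotation, with each library in its own column. The submitters' processing notes also name CASAVA 1.7. FPKM is scaled to length and mapped reads. Whole reads were not recovered from it. The study gives the mapped reads of each library, which were not used here, so the reads behind single values were not estimated and counting intervals are not given. Whether counting used strand is not given in the sources used here, so reads of overlapping and antisense annotations cannot be told apart.

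Groups followed the GEO labels, which number the HTR5-GFP libraries 1 and the HTR13-GFP libraries 2, so that the number equals the line and pairs nothing. Annotations at 1 FPKM or more on average were tested on log2(FPKM + 1), where a fold change of low genes is understated, by limma 3.58.1 in R 4.3.3 (lmFit with line and tissue, eBayes with a trend), two-sided, with Benjamini-Hochberg adjustment over all 17965 and a threshold of 0.05. The study's methods state no test between lines. For some analyses they left out genes whose FPKM differed beyond set limits between the replicates of a tissue, which are these lines. That filter was not applied here. Nothing in the labels says that libraries came from separate cultures beyond line and tissue. With 1 library per line and tissue, the residual is how far the line ratio differs between the tissues, moderated across annotations. The p-values and SE therefore do not measure the variation between replicate libraries of a line and tissue. The step was tested on simulated data. Python 3.11.15 with numpy 2.4.6 and pandas 2.3.3 gave the remaining values.

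Genes named are the top 12 calls in each direction by log2 fold change, nuclear protein-coding genes only, up to 6 per list by size, called neighbours of the tagged genes (10 annotations each side), up to 8 genes listed at 0 in either line and up to 5 of each kind with opposite differences. The remaining calls and list members named were chosen after their values were seen. The 23 lists (378 entries, of which 314 were tested) and the comparison itself were chosen with earlier results of these data known. Coordinates are those of TAIR9, starts raised by 1. Sequences and gene names are from RefSeq's TAIR10.1, matched by locus for 32693 annotations, with symbols otherwise as in common use. Alternatives covered the block, pseudocount, filters, scaling, the moderation of variances, annotation classes and leaving out libraries.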

Additional observations from a re-analysis of the deposited data

Results flagged for a closer look

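The line difference had opposite signs in the tissues, by at least 2-fold in FPKM + 1 each way, for some annotations. Of these, 7 were higher in HTR13-GFP in non-dividing and lower in dividing tissue, and 8 were the reverse. The difference between tissues was not tested, since each tissue has 1 library per line. Opposite signs in the tissues are what brought these annotations here, and the 5 of each kind with the largest value of the smaller absolute ratio are named, each with its dividing minus non-dividing log2 ratio. MAPR2, a membrane-associated progesterone-binding protein homologue, was at 0.656 and 25.5 FPKM in non-dividing and dividing tissue of HTR5-GFP and at 8.41 and 0.201 FPKM in HTR13-GFP, a difference of -6.97. AT5G57650 (-5.43), AT1G07901 (-5.24), AT5G57080 (-3.84) and AT3G62499 (-3.24) were each listed at 0 in non-dividing HTR5-GFP and in dividing HTR13-GFP. The chloroplast annotations ATCG00700 (7.61), ATCG01020 (5.98) and ATCG00650 (3.20), with AT5G41109 (5.53) and RTFL14 (4.85), were each listed at 0 in the remaining pair of libraries. ATCG00700 was at 18.4 FPKM in non-dividing HTR5-GFP and at 9.03 FPKM in dividing HTR13-GFP.

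Of the lists whose median had opposite signs in the tissues, with a difference of at least 0.3, the cold list gave -0.60 and the abscisic acid list -0.30 for dividing minus non-dividing tissue. These differences were not tested either.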

How the results depend on the processing

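The number of calls depended on the processing, while all 38 kept their sign wherever they were tested. Called higher in HTR13-GFP and higher in HTR5-GFP were 0 and 0 without the tissue block (24 annotations at an unadjusted p under 0.05), 0 and 0 on quantile-normalized values (1833 unadjusted; adjusted p of the 38 between 0.0874 and 0.112), 0 and 0 without the filter (1910 unadjusted; 0.194 to 0.227), 0 and 2 with a pseudocount of 0.1, neither of them among the 38, and 2 and 10 without a trend, all among the 38, all by limma. They were 35 and 32 at a minimum mean of 5 FPKM (27 of the 38 tested, all called), 50 and 47 with nuclear protein-coding genes only (35 tested, all called), 23 and 31 without overlapping annotations (28 tested, all called) and 50 and 47 without annotations at 0 in any library (30 tested, all called; chosen after seeing the data). With at least 2-fold in FPKM + 1 in both tissues required, 5 and 18 calls remained. A pseudocount of 5, rescaling by the median ratio and robust moderation kept both counts within 1.5 times of 13 and 25, with 26, 38 and 35 of the 38 called. The share of calls higher in HTR13-GFP was 34.2% and rose to 52.2% at a minimum of 5 FPKM. The cause was not tested.

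Leaving out a library leaves 1 tissue with both lines and no residual degrees of freedom, so no count is possible, and each value becomes the ratio of the remaining tissue, as given for both tissues above. The touch list kept its median between 0.63 and 0.71 with rescaling, quantile normalization, a pseudocount of 0.1 and each library left out. These settings reuse the same libraries and a list chosen with earlier results known, so this is no separate support. No paired analysis was possible because the replicate number of the labels equals the line. What depth limits for single annotations was not computed, since FPKM was used without read numbers.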
